A study of Mus musculus with 6 samples.

Results

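The cytokines that signal through the shared receptor chain gp130, together with their receptors, were examined in RNA-seq libraries of infarct macrophages. The 9 genes are those of the deposited count table named Il6, Osm, Lif, Clcf1, Il11, Il6ra, Il6st, Osmr and Lifr, of 54532 genes in all. Each had a single row, and 8 of the 9 had enough counts to be tested, Il11 being the exception. The libraries came from C57BL/6 mice studied 7 days after permanent occlusion of the left anterior descending coronary artery, 12-week-old per the labels, 3 ITGA5 fl/fl and 3 Myα5KO. Both groups carried Itga5 alleles flanked by recombination sites. In the Myα5KO group (genotype ITGA5 fl/fl + LyzM-Cre), Cre recombinase expressed from the lysozyme M promoter removes Itga5, the integrin α5 gene, in myeloid cells at large, neutrophils included, and not in macrophages alone. No Cre-only library was analysed here, so loss of the integrin and presence of Cre cannot be told apart. Hearts of individual mice were digested, Ly6G+ cells were removed, and CD11b+ cells were kept on a magnetic column as macrophages.

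Cytokines of this family act through gp130, which the gene Il6st encodes. Each ligand recruits gp130 with a partner: IL-6 binds the IL-6 receptor α chain (Il6ra), LIF and CLCF1 engage the LIF receptor (Lifr), CLCF1 through the additional chain CNTFR, and oncostatin M (Osm) uses the oncostatin M receptor (Osmr) in mice. The assembled receptor activates JAK kinases and the transcription factor STAT3, and SOCS3 ends the signal. In the heart, gp130 signals are known for effects on cardiomyocyte survival and on fibroblasts, and macrophages are a known source of IL-6 and oncostatin M.

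Total counts ranged from 15424451 to 18152357 in ITGA5 fl/fl and from 18232574 to 18419287 in Myα5KO libraries. Itga5 held 9745, 9666 and 10536 counts in ITGA5 fl/fl libraries and 939, 915 and 895 in Myα5KO libraries (log2 fold change -3.64, SE 0.08, edgeR adjusted p 4.42e-12), which matches the labelled genotypes. The macrophage genes Cd68 (831 to 935 CPM, read counts scaled to library size with edgeR's TMM factors) and Csf1r (1995 to 2301 CPM) were abundant in every library. Ly6g, which marks the neutrophils that were removed, reached at most 0.107 CPM. The labels do not say whether the libraries of a group shared a litter or a day of preparation.

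Of the 8 tested members, 3 were lower and 0 were higher in Myα5KO macrophages, at a Benjamini-Hochberg adjusted p of 0.05 or less in edgeR's quasi-likelihood test. Over all 14522 genes tested, 8.75% were called, 5.19% lower and 3.56% higher. All 3 called members were cytokines: Il6, Lif and Clcf1. None of the 4 receptor genes was called in edgeR or in DESeq2, and 0 of the 4 had an unadjusted p under 0.05 in either tool. The cytokine gene Osm was not called either. The groups did not overlap for 4 of the 8 tested members, beside 28.6% of all genes tested. The median log2 fold change (Myα5KO over ITGA5 fl/fl) was -0.15 over the 8 tested members and 0.0146 over all genes tested.

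Levels were compared between genes on the FPKM scale, which divides by gene length. Osm was the most abundant member in both groups, with 142, 158 and 152 FPKM in ITGA5 fl/fl and 124, 149.7 and 148 FPKM in Myα5KO macrophages. In ITGA5 fl/fl macrophages Lif, Clcf1, Il6 and Il6ra came next, at 14.2 to 29.2 FPKM, and the ranges of neighbours in that order overlapped. Il6st (10.6 to 11.7 FPKM), Lifr (8.87 to 9.66 FPKM) and Osmr (1.13 to 1.37 FPKM) followed without overlap. In Myα5KO macrophages the order differed: Il6ra (19.0 to 19.9 FPKM) stood above Lif (11.3 to 13.9 FPKM), Clcf1 and Il6, and Il6 at 8.65 to 12.4 FPKM overlapped Il6st at 9.67 to 11.4 FPKM. Il11 was the lowest member in both groups, at 0.0265 to 0.185 FPKM.

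**Figure D1:**
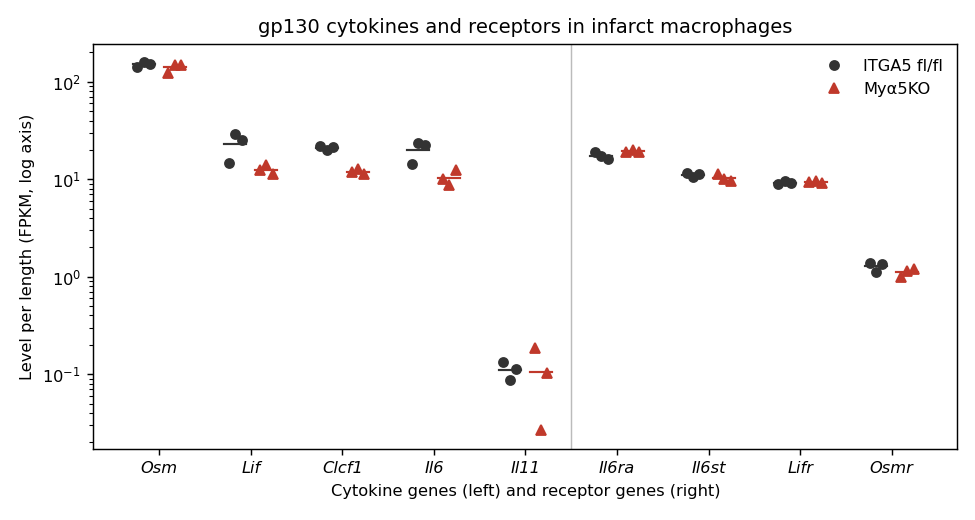
Level per length (FPKM, log axis) of the 5 cytokine and 4 receptor genes, where each point is a library, circles are ITGA5 fl/fl, triangles are Myα5KO and short lines are group means. Osm lies at 124 FPKM or more in all 6 libraries, and Lif, Clcf1 and Il6 are lower in every Myα5KO library than in every ITGA5 fl/fl library.

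Il6 encodes interleukin-6, the founding member of the family (ENSMUSG00000025746, GRCm38 chromosome 5, 30013114 to 30019981, plus strand, protein coding). Its normalised read counts were 34.5, 57.8 and 55.3 CPM in ITGA5 fl/fl replicates 1, 2 and 3 and 24.6, 21.1 and 30.7 CPM in Myα5KO replicates 1, 2 and 3. The groups did not overlap, but ITGA5 fl/fl replicate 1 was far below the other control libraries, at 61.0% of their mean, and the highest Myα5KO library had 88.8% of its level. Means were 49.2 ± 12.8 and 25.5 ± 4.84 CPM (SD, n = 3 each), and the second was 51.7% of the first. The log2 fold change of Il6 was -0.95 (SE 0.17, adjusted p 0.0039). In limma on log2(FPKM + 1) it was -0.87 and Il6 was not called (adjusted p 0.0647). Il6 is among the mediators that the study itself drew from these libraries, so its direction is not independent evidence. The study adds that the group of genes it names with Il6 did not change consistently when ITGA5 was blocked in vitro.

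Lif encodes leukemia inhibitory factor (ENSMUSG00000034394, chromosome 11, 4257557 to 4272514, plus strand, protein coding). It had 64.1, 128 and 109.6 CPM in ITGA5 fl/fl and 53.6, 60.7 and 50.2 CPM in Myα5KO replicates 1, 2 and 3. The same control library, ITGA5 fl/fl replicate 1, was again the lowest, at 53.9% of the mean of the other control libraries, and the groups were separated narrowly, since the highest Myα5KO library reached 94.8% of it. Lif fell by 0.88 on the log2 scale (SE 0.18, adjusted p 0.00842), from 101 ± 33.0 to 54.8 ± 5.37 CPM (SD, n = 3 each) and thus to 54.5% of the control mean. Lif was not called on the FPKM scale either (log2 fold change -0.78 with a pseudocount of 1, adjusted p 0.104). Without ITGA5 fl/fl replicate 1 the log2 fold changes were -1.15 for Il6 and -1.12 for Lif.

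To show the sequence around the start of the cytokine genes that fell, the bases before the RefSeq start (GRCm38.p6) are printed for Il6, whose promoter is a known target of inflammatory transcription factors, and for Lif. RefSeq windows were at hand for 7 of the 9 members, with none for Osm and Clcf1. Capitals mark matches, on either strand, to motifs of AP-1 (TGANTCA), CRE-binding factors (GACGTCA), C/EBP (TTGNNCAA) and NF-kappaB. The Il6 stretch is chr5:30012864-30013113 and the Lif stretch is chr11:4257318-4257556, both on the plus strand, and the latter stops at the gene start of the deposited table.
Il6: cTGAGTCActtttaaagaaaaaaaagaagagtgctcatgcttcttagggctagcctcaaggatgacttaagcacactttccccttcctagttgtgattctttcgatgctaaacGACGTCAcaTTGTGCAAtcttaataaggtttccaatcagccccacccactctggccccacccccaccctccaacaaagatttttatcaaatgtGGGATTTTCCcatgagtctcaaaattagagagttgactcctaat
Lif: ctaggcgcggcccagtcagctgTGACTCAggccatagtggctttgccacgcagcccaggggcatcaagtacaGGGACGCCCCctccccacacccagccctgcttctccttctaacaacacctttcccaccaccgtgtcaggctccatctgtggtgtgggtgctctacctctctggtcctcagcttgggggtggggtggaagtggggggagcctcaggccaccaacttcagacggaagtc

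The Il6 stretch held 1 match to each of the 4 motifs. Counted back from the RefSeq start, AP-1 lay at bases 249 to 243, the CRE at 137 to 131, C/EBP at 128 to 121 and NF-kappaB at 44 to 35, and none overlapped another. Lif held an AP-1 match at 228 to 222 and an NF-kappaB match at 178 to 169. A window of Il11, which was hardly detected, also held AP-1, at 98 to 92. Among 32851 RefSeq windows of the 250 bases before a start, 6.75% held the AP-1 motif, 2.78% the CRE, 5.65% C/EBP and 7.25% NF-kappaB. The STAT motif TTCNNNGAA, present in 7.02% of windows, was not found in the windows of any of the 7 members. Matches describe the letters only, since binding was not measured here.

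Clcf1 encodes cardiotrophin-like cytokine factor 1 (ENSMUSG00000040663, chromosome 19, 4214238 to 4223490, plus strand, protein coding). Its counts were the most even of the 3 lower cytokines, with 80.9, 75.4 and 80.0 CPM in ITGA5 fl/fl and 43.8, 47.1 and 42.7 CPM in Myα5KO replicates 1, 2 and 3. The groups were well apart: the highest Myα5KO library had 62.5% of the lowest control library. Means were 78.8 ± 2.94 and 44.6 ± 2.31 CPM (SD, n = 3 each), the second being 56.6% of the first. Clcf1 thus had a log2 fold change of -0.82 (SE 0.07, adjusted p 2.81e-05). Clcf1 was called under each alternative, limma on the FPKM scale included. A microRNA gene annotated within Clcf1, Gm26115, held 25 to 58 counts. The strand setting of the counting is not given in the sources used here.

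Osm encodes oncostatin M (ENSMUSG00000058755, chromosome 11, 4236420 to 4241026, plus strand, protein coding). It lies next to Lif on the same strand, 16.5 kb away, with 0 annotated genes between them in the deposited table. Its levels were 324, 363 and 346 CPM in ITGA5 fl/fl and 282, 341 and 342 CPM in Myα5KO replicates 1, 2 and 3, and the groups overlapped. The log2 fold change of Osm was -0.10 (SE 0.08, 95% interval -0.27 to 0.08, adjusted p 0.525), so a fall as large as the fitted fall of Lif lay outside its interval. Within each library, Osm exceeded Lif 5.42 to 9.67 times per length in ITGA5 fl/fl and 10.1 to 13.0 times in Myα5KO macrophages. The ratio of Osm to Il6 was 6.68 to 10 in ITGA5 fl/fl and 11.9 to 17.3 in Myα5KO macrophages. These ratios do not depend on library scaling, and neither overlapped between the groups. No test of the ratios was run.

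**Figure D2:**
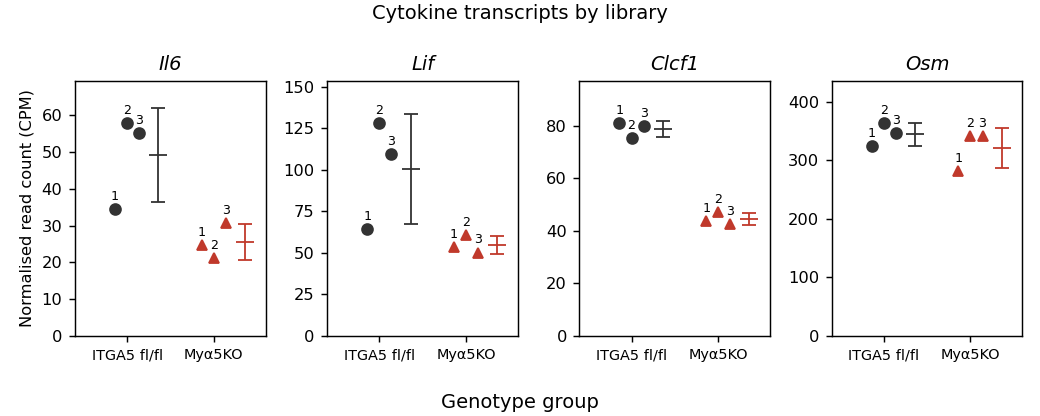
Normalised read count (CPM) of Il6, Lif, Clcf1 and Osm in each library, with the replicate number beside each point and the group mean ± SD at the right of the points (n = 3). ITGA5 fl/fl replicate 1 is the lowest control for Il6 (34.5 CPM) and Lif (64.1 CPM) but not for Clcf1 (80.9 CPM), and Osm overlaps between the groups.

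Il11 encodes interleukin-11 (ENSMUSG00000004371, chromosome 7, 4772373 to 4782857, minus strand, protein coding), a cytokine made largely by stromal cells. It held 4, 3 and 4 counts in ITGA5 fl/fl and 7, 1 and 4 counts in Myα5KO libraries. These counts are too few to show a difference at this depth, and Il11 was not tested.

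Among the receptors, Il6ra encodes the chain that binds IL-6 (ENSMUSG00000027947, chromosome 3, 89864059 to 89913196, minus strand, protein coding). Il6ra had 165, 152 and 139 CPM in ITGA5 fl/fl and 166, 173 and 167 CPM in Myα5KO replicates 1, 2 and 3. Every Myα5KO library lay above every control library, narrowly at the closest, and the difference was not called (log2 fold change 0.15, SE 0.07, 95% interval -0.00279 to 0.30, adjusted p 0.225). With scaling to library totals alone, it was 0.23 and was called higher (adjusted p 0.048, in a range of 0.048 to 0.574 over the alternatives). An annotated antisense gene, Gm42809, overlaps Il6ra and had at most 3 counts. Il6 stood at 0.746 to 1.42 of the Il6ra level per length in ITGA5 fl/fl libraries and at 0.434 to 0.654 in Myα5KO libraries.

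Il6st encodes gp130 itself, the chain common to the whole family (ENSMUSG00000021756, chromosome 13, 112464070 to 112510086, plus strand, protein coding). It had 129.8, 119 and 124 CPM in ITGA5 fl/fl and 126, 111 and 109 CPM in Myα5KO macrophages, with overlapping groups. The log2 fold change was -0.11 (SE 0.07, 95% interval -0.26 to 0.05, adjusted p 0.411).

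Lifr and Osmr, the partner chains for LIF and oncostatin M, are neighbours on chromosome 15, 216 kb apart with 1 annotated gene between them, which is not protein coding. Lifr (ENSMUSG00000054263, 7090614 to 7197489, plus strand, protein coding) had 95.8, 105 and 98.5 CPM in ITGA5 fl/fl and 100.4, 105 and 99.3 CPM in Myα5KO macrophages. Its log2 fold change was 0.03 (95% interval -0.11 to 0.16, adjusted p 0.857), the value nearest to 0 among the members. Osmr (ENSMUSG00000022146, 6813577 to 6874969, minus strand, protein coding) was scarce, with 16.6, 13.8 and 16.4 CPM in ITGA5 fl/fl and 12.0, 13.8 and 14.8 CPM in Myα5KO macrophages. The log2 fold change of Osmr was -0.20 (SE 0.12, 95% interval -0.45 to 0.04, adjusted p 0.317). The transcript of the ligand exceeded that of its own receptor widely: Osm was 104 to 140.2 times Osmr per length in ITGA5 fl/fl and 123 to 132 times in Myα5KO libraries.

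Most of the rest of the family was sparse, but Ebi3 and Il11ra1 were not. Of 11 further ligand and receptor genes, 5 were tested and 0 were called in edgeR, with 0 at an unadjusted p under 0.05. DESeq2 also called 0. Among those tested were Ebi3 (20.6 to 27.7 CPM over the 6 libraries), which encodes a subunit of interleukin-27, Il27 (0.737 to 2.53 CPM), Il27ra (1.88 to 5.27 CPM), and Il11ra1 (25.8 to 32.2 CPM), the receptor chain for interleukin-11. Cntf, Ctf1, Ctf2, Il31, Cntfr and Il31ra were under the count filter, with at most 12 counts in any library. Cntfr, which encodes the chain through which CLCF1 engages its receptor, had 1 to 6 counts per library.

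Genes that carry and restrain the gp130 signal were then compared, from a list of 34 genes that includes those 11. Of 28 tested, 3 were higher, beside 3.56% of all genes tested, and 4 were lower, beside 5.19%. The median log2 fold change of the 28 was -0.09. Counts by role were 1 lower of 3 genes of receptor shedding, 2 higher and 3 lower of 12 kinases, STATs and adaptors, and 1 higher of 8 feedback inhibitors.

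Among the kinases, Jak2 had 266, 228 and 237 CPM in ITGA5 fl/fl and 167, 167 and 134 CPM in Myα5KO macrophages, and it fell by 0.64 on the log2 scale (SE 0.09, adjusted p 0.00104). Jak1, the kinase that gp130 mainly uses, had a log2 fold change of -0.10 and was not called (adjusted p 0.438). Tyk2 was slightly higher, with 76.4 to 81.8 CPM in ITGA5 fl/fl and 90.2 to 94.8 CPM in Myα5KO libraries (0.23 on the log2 scale, adjusted p 0.0393), a call that was lost under 10 of 15 alternatives, DESeq2 among them (0.22, adjusted p 0.0569, in a range of 0.00831 to 0.145). Leaving out Myα5KO replicate 1 or 2, or ITGA5 fl/fl replicate 1, 2 or 3, also ended that call (0.20 to 0.25).

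Gab1, an adaptor that links the receptor to ERK and PI-3K, had the largest decrease among the called genes of the pathway list, from 154, 139 and 155 CPM in ITGA5 fl/fl to 82.3, 82.3 and 64.6 CPM in Myα5KO macrophages. The groups were far apart (log2 fold change -0.97, SE 0.09, adjusted p 5.6e-05). Rhbdf2 encodes iRhom2, which brings the protease ADAM17 to the cell surface, where ADAM17 can shed the IL-6 receptor. Rhbdf2 had 253 to 271 CPM in ITGA5 fl/fl and 189 to 197 CPM in Myα5KO libraries, a fall by 0.45 on the log2 scale (SE 0.06, adjusted p 0.000921). The proteases themselves were not called, with log2 fold changes of 0.09 for Adam10 and 0.04 for Adam17.

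Stat3, the main STAT of this receptor, had 521, 479 and 482 CPM in ITGA5 fl/fl and 413, 428 and 387 CPM in Myα5KO macrophages. The groups did not overlap (log2 fold change -0.27, SE 0.07, adjusted p 0.028), but the call was lost without any 1 of ITGA5 fl/fl replicates 1, 2 and 3 or Myα5KO replicate 2 (-0.31 to -0.23), on the FPKM scale and with library totals only (-0.19, adjusted p 0.0778, in a range of 0.00266 to 0.101 over the alternatives). Stat5a (-0.19, adjusted p 0.12) and Stat5b (0.09, adjusted p 0.428) were not called.

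Among feedback inhibitors, Socs3 was the abundant SOCS gene that gp130 induces, with 875, 853 and 872 CPM in ITGA5 fl/fl and 701, 796 and 742 CPM in Myα5KO macrophages. The groups did not overlap, but the difference was not called in edgeR (log2 fold change -0.22, SE 0.07, adjusted p 0.076). DESeq2 called it (adjusted p 0.0168, in a range of 0.0168 to 0.205 over the alternatives). Ptpn6, which encodes the phosphatase SHP-1, rose from 168 to 189 CPM in ITGA5 fl/fl to 250 to 261 CPM in Myα5KO libraries, by 0.53 on the log2 scale (SE 0.07, adjusted p 0.00043). Cish (-0.31), Pias3 (0.36), Socs1 (0.23) and Socs2 (-0.11) were not called.

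**Figure D3:**
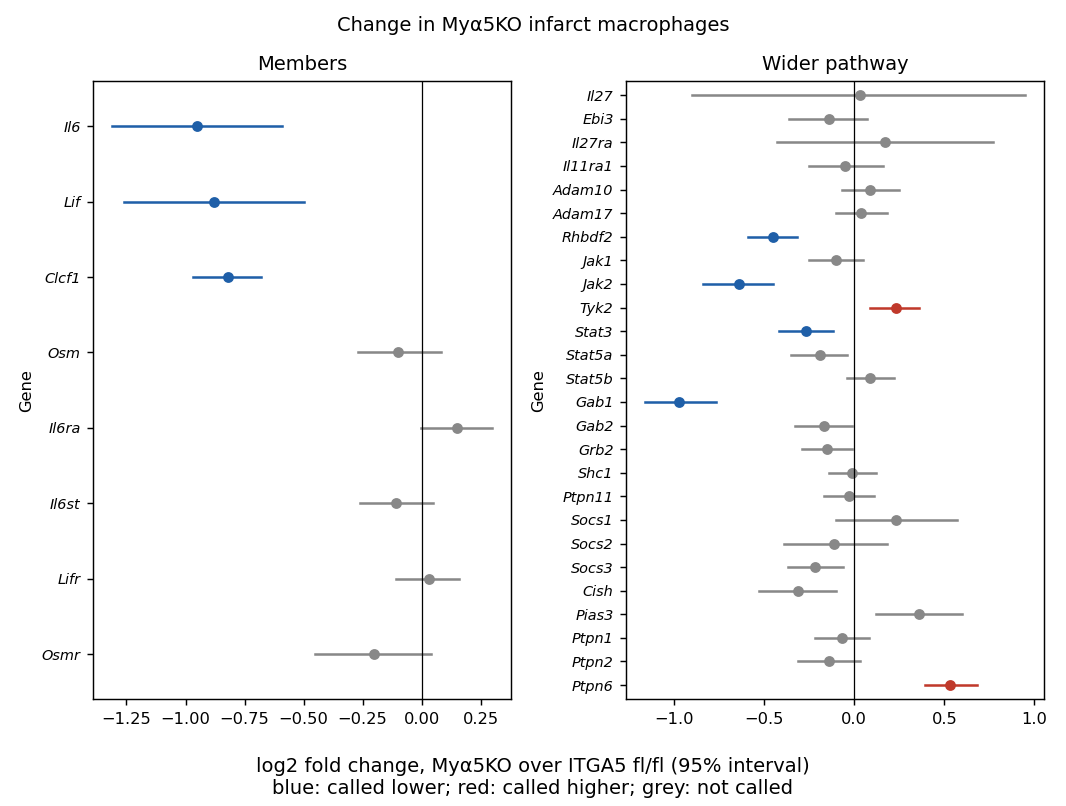
Log2 fold change (Myα5KO over ITGA5 fl/fl) with its 95% interval for the 8 tested members on the left and tested genes of the wider pathway on the right, with called genes in blue (lower) and red (higher). The intervals of Il6 (-1.31 to -0.59), Lif (-1.26 to -0.50) and Clcf1 (-0.97 to -0.68) lie wholly below that of Osm (-0.27 to 0.08).

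Genes known to respond to STAT3 were listed as a readout, although many other signals induce them. Of 19 tested, 4 were lower, beside 5.19% of all genes tested, and 2 higher, beside 3.56%. The median log2 fold change of the 19 was -0.12. Bcl3, an atypical IκB protein, fell by 0.31 on the log2 scale (adjusted p 0.0214), Bcl2l1, a survival gene, by 0.30 (adjusted p 0.0239), and Vegfa, the angiogenic growth factor, by 0.40 (adjusted p 0.0189). The study itself reports lower Vegfa in Myα5KO infarct macrophages, from a PCR array on the same kind of preparation. Of 15 alternatives, the call held in 9 for Bcl3 (adjusted p up to 0.0845), 9 for Bcl2l1 (up to 0.0828) and 11 for Vegfa (up to 0.087). Each was lost on the FPKM scale, Bcl3 and Bcl2l1 also with library totals only, Bcl3 without ITGA5 fl/fl replicate 2 or 3 or Myα5KO replicate 1, Bcl2l1 without ITGA5 fl/fl replicate 1 or 3 or Myα5KO replicate 1, and Vegfa without ITGA5 fl/fl replicate 1 or 2. Saa3, an acute phase gene, fell by 1.42 (SE 0.29, adjusted p 0.00944), with 67.6, 202 and 133 CPM in ITGA5 fl/fl and 61.4, 33.6 and 55.6 CPM in Myα5KO macrophages. Its lowest control was again ITGA5 fl/fl replicate 1. Saa3 was not called in DESeq2 (-1.42, adjusted p 0.0516, in a range of 0.000289 to 0.113 over the alternatives) or in limma on the FPKM scale. The immediate early gene Fos (log2 fold change 0.55, adjusted p 0.00987) and the cyclin gene Ccnd1 (0.46, adjusted p 0.00387) rose. The call of Ccnd1 held in all 15 alternatives, and that of Fos was lost on the FPKM scale and without ITGA5 fl/fl replicate 3 (0.49, adjusted p 0.0593, in a range of 1.33e-05 to 0.0752). The number of lower genes in the list was 2 without ITGA5 fl/fl replicate 2, ITGA5 fl/fl replicate 3 or Myα5KO replicate 1, and 0 in limma on the FPKM scale, where 9 had a lower value with an unadjusted p under 0.05. DESeq2 called 5 lower, Saa3 not among them. The number of higher genes was 1 without ITGA5 fl/fl replicate 3.

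For each lower cytokine, the 3 genes of the most similar pattern were sought among 9330 genes of at least 100 counts per library on average, by the root mean square (RMS) difference of log2 CPM, centred on each gene's mean, over the 6 libraries. The nearest to Clcf1 were Mllt6 (RMS difference 0.05), Txnrd1 (0.07), which encodes a thioredoxin reductase, and Cd274 (0.07), which encodes PD-L1. The nearest to Lif were Ltbp1 (0.14), which encodes a binding protein of latent TGF-β, Rhou (0.16) and Fn1 (0.19), the fibronectin gene. Fn1 had 2446, 4042 and 3653 CPM in ITGA5 fl/fl and 2442, 2061 and 1593 CPM in Myα5KO macrophages. The nearest to Il6 were Fam71f2 (0.19), Lbp (0.19) and Ltbp1 (0.20). For comparison, the RMS deviation from the gene's own mean was 0.41 for Clcf1, 0.51 for Lif and 0.54 for Il6. These similarities are a description, since the libraries share their group and their preparation.

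Marker lists of other cells that a CD11b+ preparation may hold were summed in each library. Sums were compared by permuting the libraries between groups (exact, two-sided), which cannot give a p below 0.1 with 3 libraries per group. In such bulk libraries, fewer cells of a type and less RNA per cell cannot be told apart. Fibroblast markers, of interest because fibroblasts make IL-6, LIF and IL-11, summed to 1723 to 2020 CPM in ITGA5 fl/fl and 1291 to 1679 CPM in Myα5KO libraries, or 80.8% of the control level (exact p 0.1, adjusted p 0.22 over 11 lists). Of 12 fibroblast genes, 2 were called lower (Postn and Cthrc1), beside 5.19% of all genes tested. Col1a1 (-0.34, adjusted p 0.106) and Pdgfra (-0.28, adjusted p 0.275) were not called. The 10 genes not called ran from 78.7% (Col5a1) to 118% (Ddr2) of the control mean, with Dcn at 95.1% and Thy1 at 100%. Col3a1, Col1a1 and Col1a2, which encode collagen chains, were the largest parts of the fibroblast sum. ITGA5 fl/fl replicate 1 had the highest fibroblast sum of the control libraries and the lowest Il6 and Lif. That is 1 library, and a relation of the fibroblast sum to Il6 or Lif was not tested. Cardiomyocyte markers summed to 21.5 to 23.7 and 13.2 to 17.6 CPM, granulocyte markers to 186 to 229 and 254 to 379 CPM, T and NK cell markers to 3.76 to 4.64 and 5.16 to 6.84 CPM, and macrophage markers to 12321 to 12486 and 10676 to 11356 CPM (exact p 0.1 and adjusted p 0.22 for each). The cardiomyocyte sum was 65.7% of the control level. Of 6 tested cardiomyocyte genes, 3 were called lower, beside 5.19% of all genes tested. They were Ttn, Actc1 and Tnnt2, at 40.5%, 49.0% and 61.9% of the control mean, with 17 to 106 counts per library. The 3 not called were Myh6, Myl2 and Tnni3, at 73.0%, 92.6% and 95.4%. Of the 8 macrophage genes, Cd14 was called lower (-0.45, adjusted p 0.00413) and Fcgr1 higher (0.27, adjusted p 0.0215), and the other 6, Cd68 and Csf1r included, were not called. Among 9 tested granulocyte genes 7 were called higher, beside 3.56% of all genes tested. Those 7 stood at 196% (Elane) to 413% (Ltf) of the control mean. Csf3r (109%) and Retnlg (64.4%) were not called, and Csf3r, with 141 to 179 CPM, was the largest part of the granulocyte sum. Ly6g, Cxcr2, Nppa, Nppb, 4 of 7 T and NK cell markers and 4 of 6 basophil and mast cell markers were under the count filter. The 3 tested T and NK cell markers were not called. The sums for mural, endothelial, mesothelial, B cell, dendritic, and basophil and mast cell lists had exact p of 0.2 or more. The part of other cells in the values of the cytokines was not tested.

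**Figure D4:**
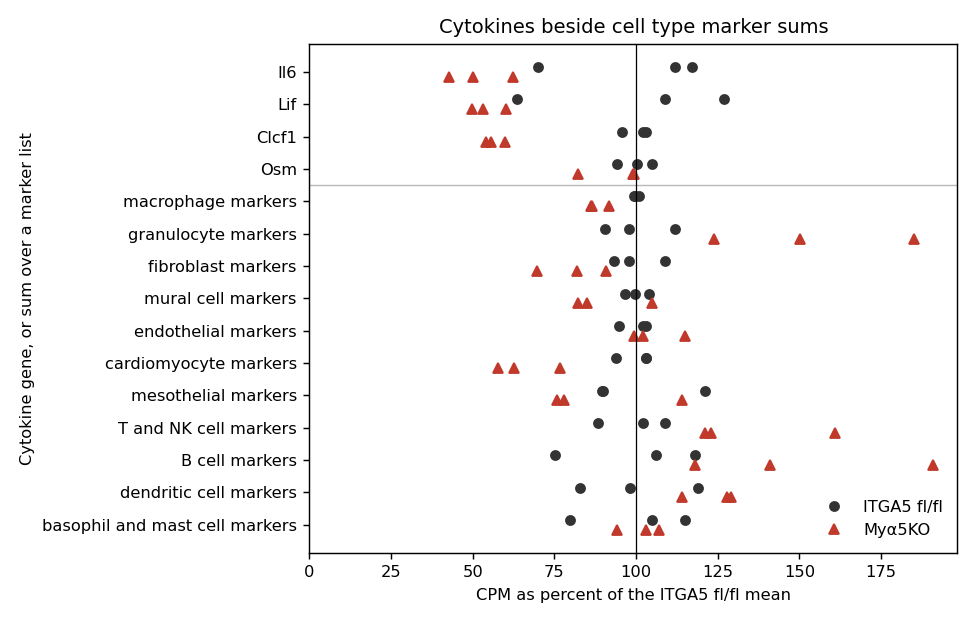
Normalised read count of Il6, Lif, Clcf1 and Osm and the summed count of each marker list in every library, as a percent of the ITGA5 fl/fl mean (circles, ITGA5 fl/fl; triangles, Myα5KO). The Myα5KO means of Il6, Lif and Clcf1 lie at 51.7%, 54.5% and 56.6%, and those of the cardiomyocyte, fibroblast and macrophage sums at 65.7%, 80.8% and 88.2%. Those of the granulocyte, B cell, and T and NK cell sums lie higher than the control, at 153%, 149.8% and 135%. The T and NK cell sum is at most 6.84 CPM in any library, and Cd14 is the largest part of the macrophage sum.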

How the data were processed

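RNA-seq was performed on Ly6G- CD11b+ cells of 3 ITGA5 fl/fl and 3 Myα5KO hearts, grouped by sample title. The authors removed low-quality reads, aligned the rest to GRCm38.p6 (mm10) with TopHat2 2.0.9, and deposited whole read counts per gene from HTSeq 0.6.1, without normalization. Handling of multi-mapped reads and the Ensembl release are not given in the sources used here. The authors also deposited FPKM values, which scale the counts by gene length and library.

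Here, counts of all 54532 genes entered edgeR 4.0.16 for its quasi-likelihood test (TMM scaling, minimum count 10, minimum total 15, no covariate, two-sided), which kept 14522 genes, and p-values were adjusted over these by the Benjamini-Hochberg method. Whether the 3 libraries of a group are separate animals rests on the study's methods; p-values measure only the spread between them. Alternatives were DESeq2 1.42.0, limma 3.58.1 (voom, and with trend on FPKM of at least 1 in 3 libraries, pseudocounts 1 and 0.1), other scalings and filters, the replicate block and each library left out. Where 15 alternatives or a range over the alternatives are given, the fit without a count filter is not among them. Named genes are Itga5, the 9 members, called genes of the lists, Stat3, Socs3 and Jak1, a few cell markers and the 3 nearest patterns; others were chosen after their values were seen. A few genes that the lists hold and the counts include are not reported here by name. Members and lists were chosen with earlier results of these data known. Scripts were tested on simulated data. Reads carry no molecular identifiers, so precision from counts covers counting error only.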

Additional observations from a re-analysis of the deposited data

How the results depend on the processing

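The number of members called lower was 3 under each alternative except limma on log2(FPKM + 1) and on log2(FPKM + 0.1), where it was 1 (Clcf1), and none was called higher except with library totals only, where 1 was (Il6ra). In those FPKM fits all genes called numbered 472 and 448 against 1271, pathway genes called higher 1 and 1, and STAT3 response genes called lower 0 and 0 (9 in each fit at an unadjusted p under 0.05; DESeq2 called 5) and higher 1 and 1. The cause was not tested. With library totals only, which moved the median of all genes tested from 0.0146 to 0.095, STAT3 response genes called lower were 2 and higher 4. Without a count filter 8 were lower.

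With each of the 6 libraries left out in turn, all genes called ranged from 616 to 1091, members lower from 3 to 3, pathway genes lower from 3 to 4 and higher from 2 to 3, and STAT3 response genes lower from 2 to 6 and higher from 1 to 3. All genes called were 723 without ITGA5 fl/fl replicate 2, 616 without ITGA5 fl/fl replicate 3 and 819 without Myα5KO replicate 2. Log2 fold changes in these fits ran from -1.15 to -0.82 for Il6, -1.12 to -0.67 for Lif and -0.87 to -0.79 for Clcf1. Lifr, which was not called, ran from -0.00377 to 0.06 and turned to -0.00377 without ITGA5 fl/fl replicate 1 and to -0.00183 without Myα5KO replicate 2.

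Same-numbered libraries did not deviate together (correlations across genes 0.0518, -0.0749 and 0.0412), and not every library correlated best with its own number, so the numbers were not taken as pairs. With the replicate block 1181 genes, 3 members lower and 5 pathway genes lower were called. Counts below about 10 per library, as for Il11, limit what could be seen.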
